A study of Homo sapiens with 22 samples.

Results

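The TTAA sites described here are those at which a piggyBac transposon was recovered in every one of 20 calling card libraries of K562 cells, a human leukemia line. These positions were selected on the deposited insertions themselves, by presence in each library. A position counted as hit in a library when at least 1 deposited insertion lay on it, whatever its orientation or barcode, on chromosomes 1 to 22 and X. There were 82250 such shared positions among 9166487 positions hit in at least 1 library and 19049403 TTAA sites on these chromosomes of hg38. They made up 0.897% of the hit positions and 0.432% of the TTAA sites. They were compared with the 3494724 positions hit in exactly 1 of the 20 libraries, called single-library positions below.

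Of the libraries, 10 used hyPBase as the helper plasmid and 10 used hyPBase-centrip. Per the labels, every library came from K562 cells transfected with 5 µg of the transposon donor and 5 µg of helper plasmid, selected for 11 days in puromycin at 2 µg/ml, with 3 transfections combined. What sets hyPBase-centrip apart is not described in the sources used here. The labels of 2 more libraries contradict each other on the helper, and the names of their files hold a further term, ClarkMut, that no source used here explains; these libraries have no group and entered neither the choice of positions nor a test. A negative control with donor alone was not analysed here. The line is the only model: no other cell type bears on what is described below.

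The piggyBac transposase (PBase) cuts and pastes its transposon into the sequence TTAA. The transposon used here is self-reporting: it carries a promoter that transcribes into the flanking genome, so that an insertion is read from RNA, and each insertion carries a barcode. The unfused transposase, as used here, is known to favour active promoters and enhancers. The choice of TTAA within such a region is also known to depend on the bases beside it.

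The 6 shared positions with the most insertions, at least 100 kb from one another, are printed with the 13 bases on each side of the TTAA, which is in capitals, to show the bases that the comparisons below count. Under each stands the nearest position hit in 1 library only. All sequences are the plus strand of hg38, and coordinates are those of the printed window.
chr18:2303139-2303168, shared, 827 insertions: acccctgctctctTTAAaatagccagtggg
chr18:2305989-2306018, single library: ctgctatgaaaaaTTAAatatagatttgaa
chr1:26127360-26127389, shared, 825 insertions: gtttcccacatgtTTAAgcagagacagtac
chr1:26121741-26121770, single library: ggtggagactgacTTAAcctttcaattatt
chr3:186860972-186861001, shared, 819 insertions: aaagtccggttgtTTAAagaaaatatgatg
chr3:186862178-186862207, single library: ttggtaccacaaaTTAAcccatctcgttgg
chr15:55403834-55403863, shared, 818 insertions: ctgcattttttgtTTAAagtaccttggact
chr15:55408737-55408766, single library: tttgccgaaaaaaTTAAcaaagaagagcga
chr7:106568758-106568787, shared, 815 insertions: ctggaaaatctctTTAAatgccagcttgcc
chr7:106561912-106561941, single library: ggaaccgcaatggTTAActtggtatcaatt
chr1:173431313-173431342, shared, 807 insertions: ctgatgaaggtccTTAAaggtctttacact
chr1:173437375-173437404, single library: aaatagcttattaTTAAttatttgcttatt

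The most used position, on chromosome 18, lay in a lncRNA gene 234373 bp from METTL4, the nearest protein-coding gene. It held between 39 and 42 insertions in the hyPBase libraries (median 42) and between 40 and 42 in the hyPBase-centrip libraries (median 41). The next lay 1818 bp outside PDIK1L and had a range of 40 to 42 with hyPBase and 41 to 42 with hyPBase-centrip. Another lay 2522 bp outside ADIPOQ, which encodes the fat cell hormone adiponectin, and held 39 to 42 insertions per library with either helper. One lay in CCPG1, 4204 bp downstream of a TSS, with 39 to 42 insertions with hyPBase and 37 to 42 with hyPBase-centrip. At these positions the helpers overlapped fully and every library was near the same level. The other 8 of the 12 most used positions were nearest to CCDC71L, PRDX6, NDUFV2, HBP1, UBE2Q2, RAB31, KCNJ6 and IGF2BP1 and held 799 to 815 insertions. Each single-library neighbour held 1 insertion.

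That common level lies at a limit of the assay. In these libraries 21 barcodes each carried at least 0.5% of insertions, and with 2 orientations they allow 42 distinct insertions at a position. The highest number at any position in any library was 43. Only 160 pairs of a shared position and a library, 0.00973% of all such pairs, reached 42 or more, and 72 positions had a median of at least 38 insertions per library. For those positions the number of insertions is a lower limit on use, and their orientations are bound to be nearly equal in number (48.5% to 51.8% plus at the 12 most used). In 1 orientation alone the barcodes allow 21 insertions, so that the limit is lower at positions used mostly in 1 orientation.

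Most shared positions were far from that limit. The number of insertions over the 20 libraries ranged from 25 to 827, with a median of 107 and quartiles of 75 and 168. Per library the median was 5, and 6.6% of the pairs of a position and a library rested on 1 insertion. The 3 positions with the fewest were in DCHS2 (25 insertions), in MYO1D (26) and 79813 bp from RYBP (27), and each held 1 to 4 insertions in any library. Just outside the rule, the 40749 positions hit in 19 libraries held 22 to 258 insertions with a median of 56. The 3 most used of these lay in HBS1L (258 insertions), 61507 bp from FAM161A (251) and in TMEM156 (249), and all 3 were missed in hyPBase-centrip replicate 3, one of the shallowest libraries. The values at and just outside the rule's edge thus overlapped widely.

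**Figure D1:**
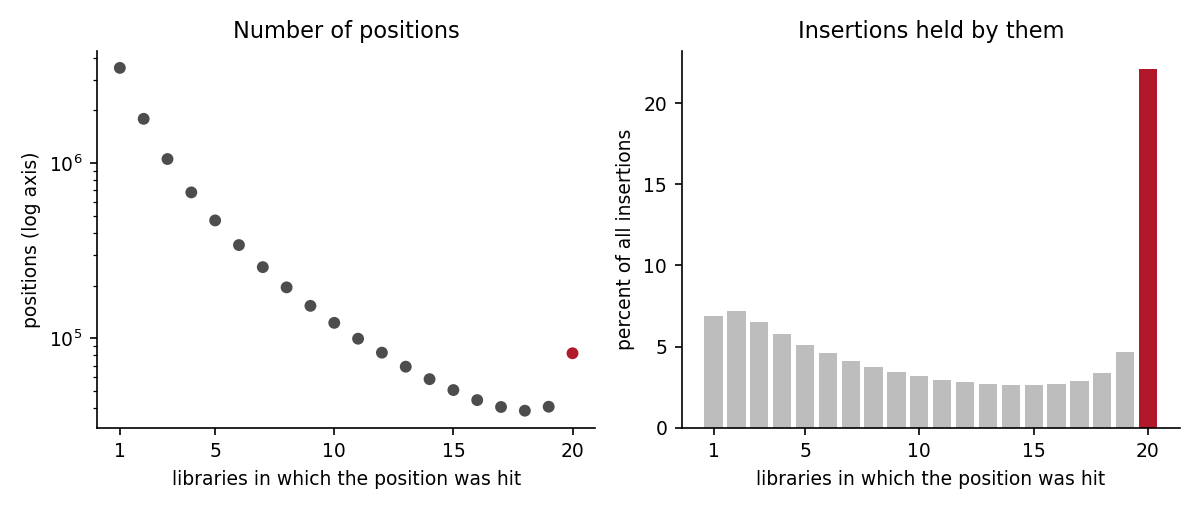
Positions on chromosomes 1 to 22 and X by the number of the 20 libraries in which they were hit (left, log axis) and the percent of all insertions they held (right), with positions hit in all 20 in red. The number of positions fell from 3494724 at 1 library to 38681 at 18 libraries and was 82250 at 20, where they held 22.1% of the insertions.

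The number of positions fell with each further library up to 18, was 40749 at 19, and was higher again at 20. Shared positions held 11527814 of 52121198 insertions, or 22.1%, as the plot by number of libraries shows. Single-library positions held 6.89%. The share of a library's insertions that fell on shared positions ranged from 20.5% to 25.2%, and the 3 highest values were in the 3 libraries with the fewest insertions (hyPBase replicates 8 and 9 and hyPBase-centrip replicate 3, with 1508684 to 1773702 on these chromosomes against 2348906 to 3594563 in the rest). Averaged over shared positions, a library held 7.01 ± 1.11 insertions per position (mean and SD of the library means, n = 20). Of single-library positions, 97.4% held 1 in their library. These values follow from the rule and are given as a description.

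Each position's detection was then read in a library that had no part in choosing it. Of the positions hit in all 19 other libraries, the left-out library hit 97.6% ± 2.02 (SD, n = 20), from 92.3% in hyPBase replicate 9 to 99.4% in hyPBase-centrip replicate 9. For positions hit in 18 of the 19 others the value was 91.0% ± 5.45, and for those hit in 1 of the 19 it was 5.12% ± 1.11. Wherever positions differ in how often they are hit, those hit in all 19 others have to be found more often than those hit in 18, so that this order is a description. The lowest detection was in the libraries with the fewest insertions. Without these 3 libraries, 104796 positions were hit in each of the 17 that remain.

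The shared positions were concentrated around transcription start sites. Of all shared positions, 10281 (12.5%, 95% Wilson interval 12.3% to 12.7%) lay within 1 kb of a TSS of a protein-coding transcript, against 1.38% ± 0.0396 (SD, n = 20 libraries) of the positions that were hit in one library alone. The difference was 11.1 percentage points and had the same sign in 20 of 20 libraries (two-sided sign-flip permutation test over libraries, adjusted p = 2e-05, the smallest that 100000 resamples can give). In this and the following tests on annotation and sequence, the value over shared positions is 1 fixed number, so that the test measures the spread of the libraries' own single positions. Within 5 kb the shares were 31.1% and 7.29%. The median distance to the nearest TSS was 17023.5 bp for shared positions, 76180.5 bp for single-library positions and 73564 bp for all TTAA sites. More than 100 kb from any TSS lay 14.96% of shared and 44.3% of single-library positions.

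Relative to the TTAA sites at hand, the number of shared positions was highest beside the TSS. In the 500 bp upstream, 39.8 of every 1000 TTAA sites were hit in all 20 libraries, and in the 500 bp downstream the value was 31.4. At 9500 to 10000 bp it was 6.66 upstream and 5.26 downstream, and more than 100 kb away it was 1.48. In the first 100 bp of the transcribed side, 438 of 9997 TTAA sites were shared, or 43.8 per 1000, and in the 100 bp before the TSS 459 of 13582, or 33.8. Single-library positions had the opposite profile, with 154 to 163 per 1000 TTAA sites within 1 kb of the TSS and 176 to 181 at 10 kb. Even within 1 kb of a TSS, between 35.2% and 37.9% of TTAA sites were hit in none of the 20 libraries, against 61.6% more than 100 kb away.

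**Figure D2:**
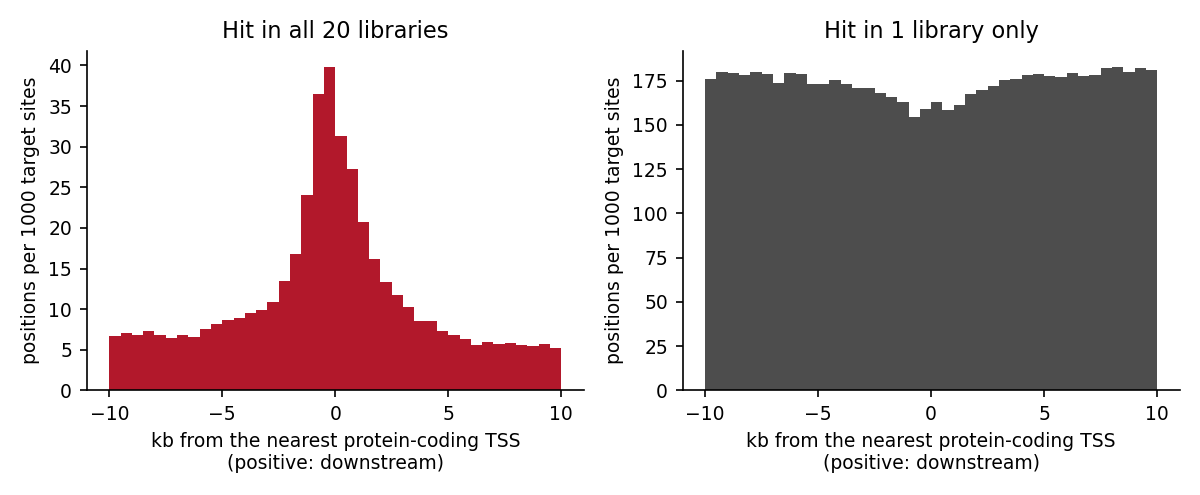
Positions hit in all 20 libraries (left) and in 1 library only (right) per 1000 TTAA sites, in bins of 500 bp by distance in kb from the nearest protein-coding TSS, with separate vertical scales. The shared positions peak at 39.8 in the bin just upstream of the TSS, where the single-library positions are near their lowest.

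Shared positions lay in protein-coding genes somewhat more often than single-library positions, at 52.5% against 45.8% ± 0.355 (difference 6.73 percentage points, 20 of 20 libraries, sign-flip permutation test, adjusted p = 2e-05). With at least 2 reads per insertion the difference was 2.81 percentage points. The shares that follow are of all positions, of which 12.5% of shared and 1.38% of single-library positions lay within 1 kb of a TSS. They are thus not shares of the positions away from a TSS. Introns and other parts of protein-coding genes beyond 1 kb of a TSS, with exons apart, held 41.5% of shared and 42.9% of single-library positions. 3′ UTRs held 2.5% and 1.34%, 5′ UTRs 0.0888% and 0.0223%, and coding sequence 0.373% and 0.337%. Per 1000 TTAA sites there were 33.8 shared positions within 1 kb of a TSS, 16.1 in the rest of 5′ UTRs, 7.45 in 3′ UTRs, 4.67 in coding sequence, 4.32 in introns, 3.91 in lncRNA genes and 3.16 outside these genes. Outside genes of either kind and beyond 1 kb of a protein-coding TSS lay 28.7% of shared positions. Each position counted in 1 class only, so that the classes other than the first leave out positions within 1 kb of a TSS.

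The shared positions were strongly clustered, and clusters are described without a test because neighbouring sites share a region. The nearest other shared position was 294 bp away in the median, and 71.2% had another within 1 kb. Only 1.24% of single-library positions lay that near to a shared one. Of the TTAA sites within 100 bp of a shared position, 23.1% were shared themselves and 4.72% were hit in no library. Farther out up to 1000 bp these values were 8.49% and 12.3%, from there to 10000 bp 0.681% and 29.2%, and beyond 100 kb 0.0114% and 64.7%. TTAA sites near a shared position were thus more often shared themselves, and some of them were never hit.

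Chained over gaps of at most 10 kb, the shared positions formed 19810 clusters with a summed span of 78.02 Mb. Of the positions, 9063 (11.0%) stood alone. The 1723 clusters with at least 10 positions held 39608 of them (48.2%), and 25 clusters had at least 100. Of the 1723, 29.9% overlapped no protein-coding gene.

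The cluster with the most shared positions spanned chr7:120977290-121099683 over the start of CPED1 and held 230 among 1052 TTAA sites. In this cluster the insertions numbered 1509 to 2354 per hyPBase library (median 2132) and 1409 to 2561 per hyPBase-centrip library (median 2304), which overlap. The next, chr6:146855276-146931152, overlapped no protein-coding gene and was the densest of the 5 with the most positions: 206 of its 525 TTAA sites (39.2%) were shared and 6 were hit in no library. It held 1537 to 2501 insertions per hyPBase library and 1584 to 2609 per hyPBase-centrip library. The other 3 are named by the gene they overlapped, which need not hold all of their positions. On chromosome 10 they overlapped CABCOCO1 (182 positions) and SGMS1 (158), a sphingomyelin synthase. The one on chromosome 7 overlapped PRKAR2B (177), a regulatory subunit of protein kinase A. Each of the 3 took between 0.0479% and 0.0576% of a library's insertions in the mean of either helper.

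Chromosomes differed in how many of their TTAA sites were shared. The density was highest on chromosome 22 (8.46 per 1000 TTAA sites), followed by 17 (7.67), 6 (6.91), 19 (6.88) and 1 (6.39). It was lowest on X (1.79), 13 (1.81), 4 (2.85) and 14 (2.87). Single-library positions ranged less, from 151 to 194 per 1000 TTAA sites. Chromosome copy number in these cells was not measured here.

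Of 19970 protein-coding genes, 7663 (38.4%) held at least 1 shared position and 27 held at least 100. The gene with the most was RUNX1, a transcription factor of blood formation, with 272 among 7768 TTAA sites. Its shared positions held 1454 to 2286 insertions per hyPBase library (median 2016) and 1534 to 2682 per hyPBase-centrip library (median 2200). CPED1 followed with 251, SGMS1 with 246, ZFPM2 (a GATA cofactor) with 220, NFIA with 191 and SOX6 with 190. NFIA and SOX6 encode transcription factors with roles in red cell formation. Among the next were DLGAP1 and SOX5 (169 each), ARHGAP6 (168), SAMSN1 (165), PLCL1 (154), ADGRV1 and NCAM2 (145 each), SMYD3 (137), ALDH1A2 (135), MAML2 (134), IMMP2L and MAGI1 (121 each) and VMP1 (119). As a share of the gene's TTAA sites the order changed: VMP1 had 11.8%, SAMSN1 11.0%, SGMS1 9.9% and CPED1 9.5%, and the long genes RUNX1, SOX5 and IMMP2L had 3.5%, 1.77% and 1.52%.

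Gene lists were described by whether a gene held a shared position in its body or within 10 kb, beside 57.4% of all protein-coding genes, whose median was 1 position and 125 TTAA sites. Among 15 erythroid and megakaryocyte regulators, 13 did (86.7%), with a median of 7. RUNX1 held 273, LMO2 37, MYB 36, GFI1B 20, TAL1 17 and GATA1 11. In the gene bodies alone RUNX1 held 272, LMO2 28, MYB 18, GFI1B 13, TAL1 5 and GATA1 0. GATA1, TAL1 and LMO2 are parts of one DNA-binding complex of red cell precursors. BCL11A, which silences fetal globin, and LDB1 held none. In the gene bodies, this list had 29.8 shared positions per 1000 TTAA sites against 5.08 over all protein-coding genes, and 272 of its 355 were in RUNX1.

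K562 cells carry the BCR-ABL1 fusion kinase. A list of 15 genes held BCR and ABL1 themselves and genes of signalling and survival below the fusion. All 15 had a shared position, with a median of 18. In the gene bodies there were 38.6 per 1000 TTAA sites. Of these 298 positions GAB2 held 83, STAT5B 57, BCL2L1 45 and ABL1 44. With 10 kb on each side, the adaptor GAB2 held 91, the transcription factor STAT5B 58 and STAT5A 28. Of the 28, 2 lay in the body of STAT5A. Its window overlaps STAT5B, so that a position can count for both genes. ABL1 held 47, the survival gene BCL2L1 46 and the kinase PIM1 25. MYC held 5 and MCL1 held 1. Of 15 acetyl-lysine readers and writers, 12 had one (80%), with a median of 4 and 4.35 per 1000 TTAA sites in gene bodies. KAT2B and KAT6B held 8 each, and BRD3, BRD9 and EP300 held none.

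Lists of other lineages were near or below the share of all protein-coding genes. Of 15 lymphoid and myeloid genes 9 had a shared position (60%), with a median of 1 and 1.31 per 1000 TTAA sites. CEBPE held 7, SPI1 held 1 and IRF4 held none. Those of CEBPE and SPI1 lay outside the gene bodies. Of 15 neuronal genes 7 did (46.7%), with a median of 0 and 0.223 per 1000 TTAA sites, although their median of 511 TTAA sites per gene was the highest of the 5 lists. SYN1 held 4, SYT1 3 and GRIN2B 1, and those of SYN1 and GRIN2B lay outside the gene bodies. The genes of a list differ in length and the lists were not tested.

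The bases around shared positions differed from those around single-library positions at 2 scales. Within 250 bp on each side, the G+C content was 41.3% at shared positions and 36.7% ± 0.384 at the libraries' single positions, a difference of 4.64 percentage points (20 of 20 libraries, sign-flip permutation test, adjusted p = 2e-05). The dinucleotide CpG occurred 1.18 times per 100 bp at shared positions and 0.657 times at single-library positions. TTAA sites that were hit in no library although they lay within 1 kb of a shared position were used as a comparison from the same regions. Their G+C content within 250 bp was 39.1%. Against these neighbours the difference was largest close to the site: in the first 20 bp the values were 39.9% at shared positions and 34.6% at neighbours, and at 981 to 1000 bp 42.8% and 41.7%. Single-library positions stayed lower over the whole kilobase, at 33.3% and 38.8%.

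**Figure D3:**
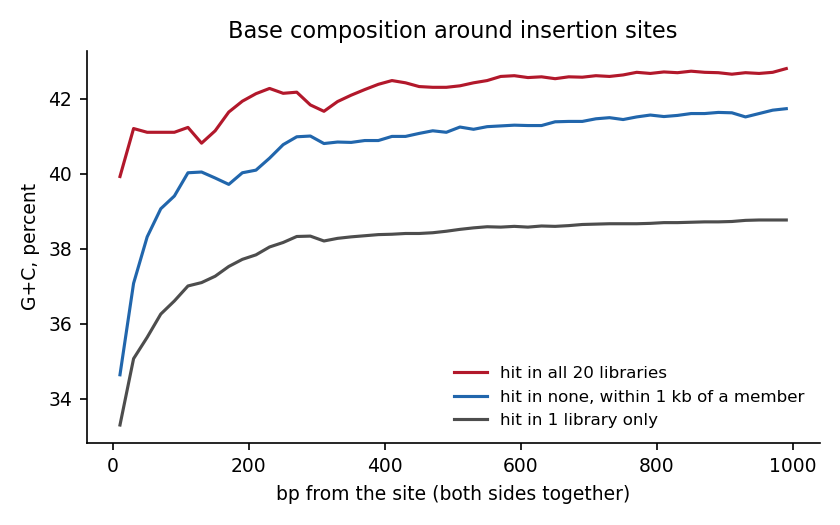
Mean G+C content in percent of bins of 20 bp by distance from the TTAA, both sides together, at positions hit in all 20 libraries, at TTAA sites hit in none but within 1 kb of such a position, and at positions hit in 1 library only. The first 2 lines come close to each other away from the site, at 42.8% and 41.7%, and the third ends at 38.8%.

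The second scale was the few bases beside the TTAA. Flanks were read toward the TTAA on both sides, so that each site counts with both strands. The base just before the TTAA was T in 55.2% of flanks at shared positions, 42.9% at single-library positions and 27.7% at unhit neighbours. It was G in 4.21%, 11.4% and 29.5%. The second base before the TTAA was C in 32.2%, 16.4% and 9.22%, and A in 17.1%, 30.4% and 39.9%. The third was T in 46.5%, 34.8% and 25.6%. Base 5 before the TTAA was C in 27.5%, 16.3% and 11.4%, and A in 18.9%, 32.6% and 45.8%. For each letter given here, single-library positions lay between shared positions and the neighbours that were never hit. Other letters at these bases did not all have this order: A just before the TTAA was at 22.1%, 28.3% and 24.3%. From base 6 to base 15 no base differed by more than 4.42 percentage points between shared and single-library positions.

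A T before and an A after the TTAA make the palindrome TTTAAA. It was present at 26318 shared positions (32%, Wilson interval 31.7% to 32.3%), against 18.8% ± 0.234 of the libraries' single positions, 17.8% of all TTAA sites and 8.45% of unhit neighbours. The difference from single positions was 13.2 percentage points (20 of 20 libraries, sign-flip permutation test, adjusted p = 2e-05). In the printed sequences 4 of the 6 shared positions had it and none of the single-library positions did.

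The features differed in how they changed with the number of libraries. The share within 1 kb of a TSS was 1.38% at 1 library, 3.58% at 10, 8.61% at 18, 10.2% at 19 and 12.5% at 20. The share with TTTAAA was 18.8%, 31.9%, 32%, 31.8% and 32%, so that it changed little from 10 libraries on. The share in protein-coding genes was 45.8% at 1 library, 57.6% at 12 and 52.5% at 20. Among the shared positions themselves, divided into 5 classes of nearly equal size by number of insertions, from the lowest class (25 to 69 insertions) to the highest (190 to 827), the share in protein-coding genes went from 54.7% to 48.8%, G+C content from 41.0% to 41.8% and TTTAAA from 31.6% to 33.9%. The share within 1 kb of a TSS was 9.9% in the lowest class, 14.4% in the next to highest and 13.5% in the highest.

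**Figure D4:**
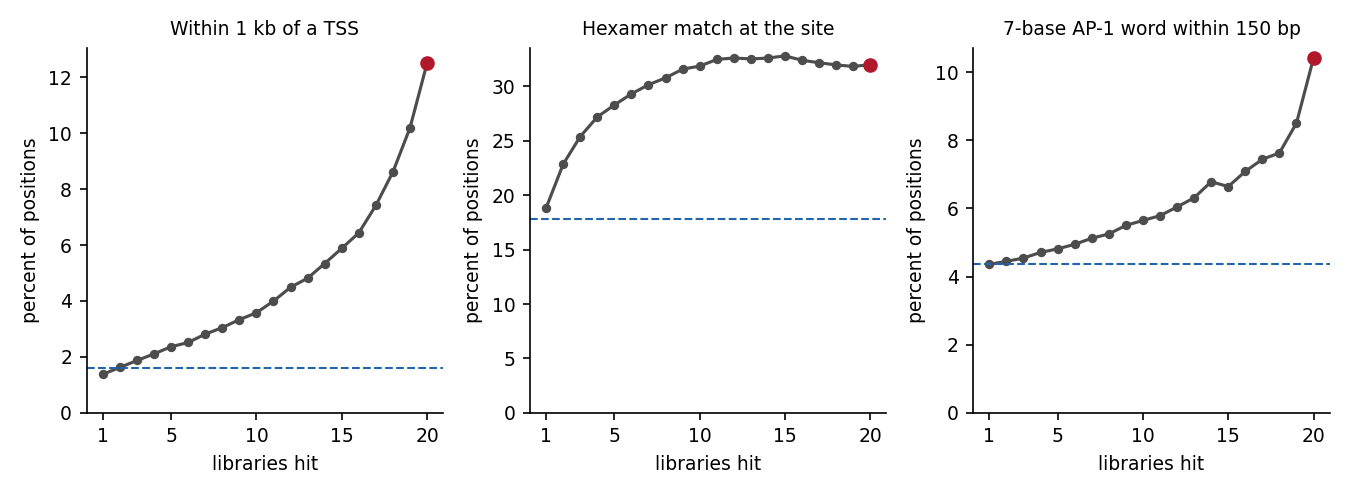
Percent of positions within 1 kb of a TSS, with T before and A after the TTAA (the hexamer match) and with the AP-1 word TGACTCA within 150 bp, by the number of libraries that hit them. Red marks the positions hit in all 20 and the dashed line all TTAA sites; the middle series levels near 32% from 10 libraries on and the outer 2 are highest at 20, at 12.5% and 10.4%.

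Short words recognised by transcription factors were counted within 150 bp of the TTAA on both strands. A match is a description of the sequence and not a bound site. AGATAA, the word of GATA factors, was present at 27.5% of shared positions and 26.7% ± 0.387 of the libraries' single positions, a difference of 0.763 percentage points (20 of 20 libraries, sign-flip permutation test, adjusted p = 2e-05). The direction depended on the window: within 500 bp the difference was -1.95 percentage points. More than 5 kb from a TSS the shares were 29.1% and 27.0%, and within 1 kb 19.1% and 22.6%. Unhit neighbours had 23.2% and all TTAA sites 25.9%.

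The AP-1 word TGACTCA was present at 8560 shared positions (10.4%, Wilson interval 10.2% to 10.6%), against 4.36% of single-library positions, 4.61% of unhit neighbours and 4.37% of all TTAA sites. More than 5 kb from a TSS it was at 11.7% of shared and 4.38% of single-library positions, and within 1 kb at 6.13% and 4.14%. From the class of shared positions with the fewest insertions to that with the most it went from 8.92% to 13.3%. CGGAAGT, a word of ETS factors, was at 0.946% of shared and 0.414% of single-library positions, and at 2.38% and 0.862% within 1 kb of a TSS. CCACACC, a word of KLF factors, was at 4.19% and 2.94%, but unhit neighbours had 4.46%. TGTGGT, a word of RUNX factors, was at 18.1% and 16.7%, and at 17.31% of unhit neighbours. Within 1 kb of a TSS its direction was the opposite, at 14.65% of shared and 15.69% of single-library positions. These words were not tested.

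AGATAAG, which contains AGATAA, was added after these values were seen. It was at 6885 shared positions (8.37%) and at 5.01% of single-library positions, with 4.51% of unhit neighbours and 4.91% of all TTAA sites. More than 5 kb from a TSS the shares were 9.12% at shared and 5.04% at single-library positions.

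Both orientations were used about equally at shared positions in sum. The plus orientation made up 49.9% ± 0.0546 (SD, n = 20) of their insertions in a library and 49.9% ± 0.112 of those at single-library positions. Single shared positions were often uneven. Of the 82250, 23667 (28.8%) had between 40% and 60% in the plus orientation, 18775 (22.8%) had at least 90% in a single orientation and 4946 had insertions in a single orientation only. In every library, 13047 shared positions held both orientations.

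In genes the insertions were more often opposite to the direction of transcription than with it. The 42138 shared positions in protein-coding genes of 1 strand had a median of 33.3% of insertions in the same orientation as the gene, and 70.6% of them were below 50%. At 11356 at least 90% of insertions were opposite to the gene, and at 1289 at least 90% were with it. Per library, 35.9% ± 0.617 of the insertions at shared positions had the orientation of the gene, against 34.4% ± 0.814 at single-library positions. The difference of 1.57 percentage points was positive in 20 of 20 libraries (sign-flip permutation test, adjusted p = 2e-05). It was not shared by all classes of use. Pooled over libraries, the same-strand share was 32.3%, 32.9%, 33.5% and 34.4% in the 4 lower classes of shared positions by insertions, none of them above the single-library value, and 39.6% in the highest class, where the limit on barcodes also lies. By distance downstream of the TSS the share was 33.9% within 1 kb and 38.6% beyond 50 kb. Single genes varied: SGMS1 had 21.7% and ADGRV1 20.9% in the orientation of the gene, and RUNX1 had 49.5%.

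Insertions at shared positions also rested on more reads. The mean was 4.57 ± 1.06 reads per insertion at shared and 2.77 ± 0.59 at single-library positions (SD, n = 20), and 27.4% ± 7.28 and 40.7% ± 8.83 of insertions had 1 read. When insertions with 1 read were left out, 43901 positions were hit in all 20 libraries.

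The helpers were compared over the shared positions, with libraries as replicates. The labels do not say that the libraries came from separate cultures, so that p-values measure the spread between these libraries. Shared positions took 22.6% ± 1.19 of the insertions of a hyPBase library and 22.1% ± 1.31 of those of a hyPBase-centrip library (mean ± SD over 10 libraries of each helper). The difference of -0.429 percentage points did not exceed the variation among libraries (permutation test, two-sided, p = 0.456).

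The same-strand share at shared positions averaged 35.4% ± 0.297 over the hyPBase libraries, from 34.9% to 36.0%, and 36.5% ± 0.322 over the hyPBase-centrip libraries, from 36.0% to 37.0%. Every hyPBase-centrip library was above every hyPBase library, but the nearest values were 36.03% and 36.01%. The difference was 1.05 percentage points (permutation test, two-sided, p = 2e-05, again the lower limit of the resampling). At single-library positions the values were 33.7% ± 0.483 and 35.1% ± 0.301, so that the direction was not particular to shared positions. Reads per insertion at shared positions also differed, at 5.1 ± 1.03 with hyPBase and 4.04 ± 0.836 with hyPBase-centrip, and their part in the difference was not tested. With insertions of at least 2 reads the difference was 0.859 percentage points (permutation test, p = 0.0001). With each orientation counted once per position and library it was 0.812 percentage points (permutation test, p = 0.0201). The libraries then overlapped, at 40.2% to 42.3% with hyPBase and 40.8% to 43.4% with hyPBase-centrip.

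**Figure D5:**
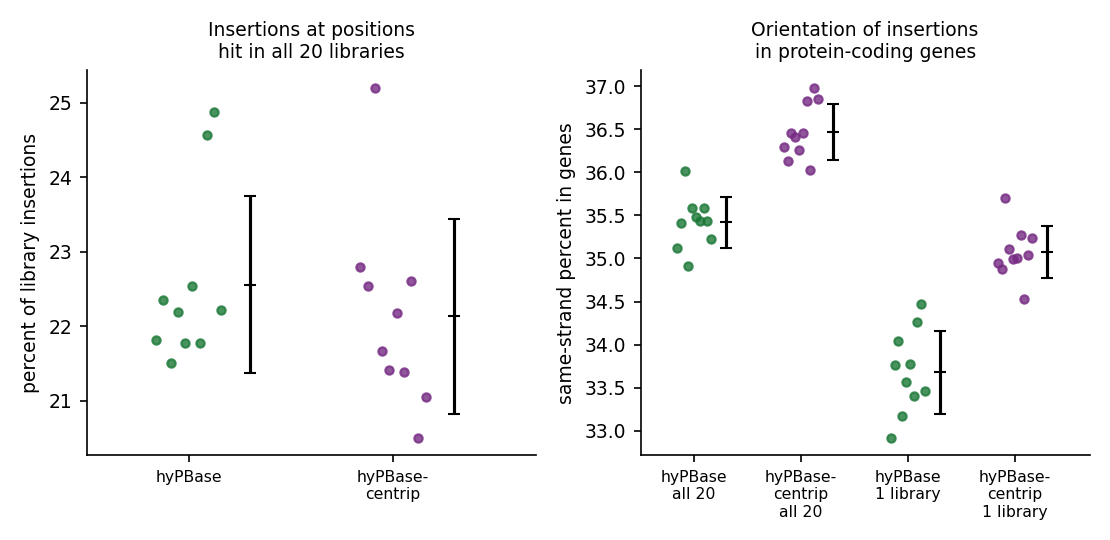
Percent of each library's insertions at positions hit in all 20 libraries (left) and percent of insertions in protein-coding genes that have the orientation of the gene, at positions hit in all 20 and at positions hit in 1 library only (right). Points are libraries and bars the mean and SD of 10; the vertical axes do not start at 0. On the left the helpers overlap (22.6% and 22.1%), and on the right hyPBase-centrip is higher at shared positions (36.5% against 35.4%) and at single-library positions (35.1% against 33.7%).

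Position by position, few differences between helpers passed the test. Of 163426 positions with at least 40 insertions, edgeR's quasi-likelihood test called 4 at an adjusted p below 0.05, or 0.00245%. Of the 81611 shared positions tested 2 were called, also 0.00245%, and 639 were below the filter. At an unadjusted p below 0.05, 5906 shared positions (7.24%) and 7.87% of all tested positions passed. The median absolute log2 fold change was 0.19 over shared positions and 0.23 over all tested positions.

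The shared position at chr21:17454645-17454648, outside protein-coding and lncRNA genes and 58398 bp from CXADR, an adhesion molecule and virus receptor, was higher with hyPBase-centrip, a direction in which 0.00184% of all tested positions were called. It held 1 to 11 insertions per hyPBase library (median 4) and 4 to 19 per hyPBase-centrip library (median 12.5), and 7 of the 10 hyPBase-centrip libraries were above every hyPBase library. The log2 fold change was 1.31 (SE 0.208, edgeR adjusted p = 0.00475). The one at chr11:87000880-87000883, in the lncRNA gene FZD4-DT and 36964 bp from TMEM135, was lower, as were 0.000612% of all tested positions, with 1 to 9 insertions per hyPBase library (median 5.5) and 1 to 4 per hyPBase-centrip library (median 2). The libraries overlapped. The log2 fold change was -1.64 (SE 0.32, edgeR adjusted p = 0.0389). It was no longer called without hyPBase-centrip replicate 3 or with a minimum of 20 insertions, and at a minimum of 100 it was not tested. DESeq2 called neither position.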

How the data were processed

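Calling card insertions of 20 K562 libraries with a group were used. The authors deposited 1 line per insertion with its position, orientation, barcode and a count of reads. Per the labels, hg38, Trimmomatic, BWA and SAMtools were used; versions and filters are not given in the sources used here. The read counts were raw, and insertions per position were counted from the deposited lines. Totals per library ranged from 1509672 to 3596762 insertions. All insertions on chromosomes 1 to 22 and X lay on a TTAA of hg38. Genes and TSS came from GENCODE 44. The members, words and gene lists were chosen with earlier results of these data known. Each library's positions hit in it alone were compared with shared positions by sign-flip permutation tests with 100000 resamples, adjusted by the Benjamini-Hochberg method over 7 tests, of which that on left-out libraries is given as a description only. Positions were tested between helpers with edgeR 4.0.16 (TMM, minimum of 40 insertions), and with DESeq2 1.42.0 as an alternative, in R 4.3.3. Other steps used Python 3.11.15, numpy 2.4.6 and scipy 1.17.1.

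The edgeR step was tested on simulated data. All positions there had the same dispersion, set beforehand and not estimated from these libraries. The rates below hold for that setting. The step was first required to recover most changes of 2-fold at well covered positions, those with at least 100 insertions. It recovered 42.2% of them there and 0.735% at positions with fewer. Changes of 4-fold were then added and the requirement was moved to them. Of these it recovered 99.1% at well covered positions and 32.2% at positions with fewer insertions. Changes at single positions can thus be missed, also those of 4-fold where insertions are few. The median shared position held 107 insertions. Positions named are the 12 shared positions with the most insertions at least 100 kb apart, the 20 genes and 5 clusters with the most, called positions, the 3 shared positions with the fewest insertions and the 3 positions in 19 libraries with the most. Some genes that these rules name are not reported here. A comparison of soft-masked repeats was not run, since the reference used here has no lower-case letters. Intervals are 95% Wilson intervals and cover counting error only; neighbouring sites are not independent. Replicate numbers are shared between helpers but marked no pairing (see the closing section).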

Additional observations from a re-analysis of the deposited data

Results flagged for a closer look

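Within the groups of 10 libraries, 8 values stood apart from the other libraries of their helper by Dixon's criterion, among 42 groups of values examined, where chance gives about 1 in 20. All 8 were in 2 of the libraries with few insertions. In hyPBase-centrip replicate 3, 25.2% of insertions were at shared positions (next highest 22.8%), 92.6% of the positions hit in all 19 other libraries were hit (next lowest 97.6%) and 78.7% of those hit in 18 of 19 (next lowest 90.3%). Its single-library positions had a G+C content of 37.8% (next 37.1%) and AGATAA within 150 bp at 25.6% (next 26.2%). The single-library positions of hyPBase replicate 8 had a G+C content of 37.3% (next 36.6%), TTTAAA at 18.4% (next 18.8%) and AGATAA at 26.4% (next 26.9%).

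The 2 libraries without a group, whose files carry the unexplained term ClarkMut, entered no choice of positions. The first hit 95.7% of the shared positions, 87.5% of the positions hit in 19 libraries, 4.98% of single-library positions and 1.74% of TTAA sites that none of the 20 libraries hit. For the second library these values were 92.6%, 80.6%, 3.96% and 1.37%. Of their insertions, 17.7% and 18.1% were at shared positions, below the 20.5% to 25.2% of the libraries that chose them.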

How the results depend on the processing

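The number of shared positions depended on depth and on the reads asked for. It was 82250 as reported, 43901 when an insertion needed 2 or more reads, 24481 when it needed 3 or more, 42129 with at least 2 barcodes in every library and 43160 with all libraries thinned to 1508684 insertions. It was 82714 to 89080 with 1 library left out, 104796 without the 3 shallowest (chosen after seeing the data), 58643 with orientation kept, 73295 over all 22 files and 122999 with 19 libraries enough. The AGATAA difference was -1.95 percentage points within 500 bp, and 4.28 against unhit neighbours; TTTAAA differed by 23.6 from these neighbours. The helpers' difference in the share of insertions at shared positions was 0.582 percentage points with at least 2 reads (permutation test, p = 0.428). With at least 2 reads the difference in protein-coding genes was 2.81 percentage points and that in AGATAA 1.43. Aside from AGATAA at 500 bp, the tested differences of shared from single-library positions kept their sign and stayed past the threshold under the alternatives run. With each orientation counted once per position and library the same-strand difference was 7.43, but positions with 1 insertion cannot move under this counting. The causes were not tested.

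Between helpers, 4 positions and 2 shared positions were called. With at least 20 insertions these were 2 and 1, with at least 100, 1 and 1, and without hyPBase-centrip replicate 3, 3 and 1. With at least 2 reads per insertion 40 of 96945 positions (0.0413%; 30 lower and 10 higher with hyPBase-centrip) and 32 of 72261 shared positions (0.0443%; 26 lower and 6 higher) were called. DESeq2 called 0 and 0, with 8858 and 4198 at an unadjusted p below 0.05. Replicate numbers paired no libraries: the correlations of deviations of same-numbered libraries ranged from -0.0247 to 0.0461, and 2 libraries correlated best with their own number. With the replicate block 2 positions and 1 shared position were called, the one on chromosome 11 no longer, the same-strand difference had p = 0.00195 and the share of insertions p = 0.522 (permutation tests).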
